A study of Mus musculus with 8 samples.

Results

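Aminoacyl-tRNA synthetase transcripts were measured by RNA-seq in bone marrow-derived macrophages (BMMs), primary mouse cells grown from marrow with macrophage colony-stimulating factor (M-CSF). The enzymes were taken as a list of 36 gene symbols, and all 36 were present among the 11541 genes of the deposited table. By name, 20 encode cytosolic enzymes and 16 encode mitochondrial enzymes, and Lars2 was described apart because its row is taken to collect ribosomal RNA reads as well. The study set 4 libraries with the genotype label OGFRL1_KO against 4 labelled OGFRL1_WT, to compare macrophages with and without Ogfrl1. All 8 came from non-adherent marrow cells kept for 4 days with M-CSF at 25 ng/mL, and no library had another treatment. The labels give no strain, age, sex, batch or description of the deleted allele. They also do not say whether each library is a separate animal, so the p-values reflect only how much these libraries vary, and some of that variation may be technical. Libraries are named KO 1 to KO 4 and WT 1 to WT 4, and the same number in the 2 groups does not pair them.

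Each synthetase joins its amino acid to the matching transfer RNA (tRNA), the step that fixes which amino acid a codon is read as. Cytosolic enzymes supply the main ribosomes, and several of them are held together in a multisynthetase complex. A separate set, encoded in the nucleus and imported, charges the tRNAs of mitochondria, where the translated proteins are core subunits of the respiratory chain. When an amino acid is short, uncharged tRNA activates the kinase GCN2 (Eif2ak4), and the transcription factor ATF4 then raises amino acid transporters, biosynthetic enzymes and many cytosolic synthetases.

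No synthetase passed an adjusted p under 0.05 between the KO-labelled and wild-type libraries by edgeR, 0 of 36 against 0.0% of the 11541 genes. Cytosolic enzymes had a median log2 fold change (KO over wild type) of 0.01 over 20 genes. Mitochondrial enzymes without Lars2 had a median of 0.16 over 15 genes, and the median of all genes was -0.0047. The mitochondrial median was 0.03 without the libraries WT 1 and WT 2 and 0.099 without WT 2 alone. It was 0.06 with the ribosomal RNA percentage as a covariate and 0.11 after correction for transcript GC content. In the other direction, it was 0.22 without KO 2 and 0.24 without WT 4. In level per length, the median cytosolic member exceeded the median mitochondrial member 6.89-fold.

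Total counts ranged from 39601341 to 61556269 per library. WT 1 and WT 2 stood apart from the other 6 libraries in the authors' mapping statistics. Their uniquely mapped reads were 76.44 and 75.76%, against 83.83 to 87% elsewhere, and their mitochondrial reads were 6.07 and 7.03%, against 1.49 to 3.17%. Ribosomal RNA reads were 1.79 and 1.83% in these 2 libraries and 2.71 to 9.10% in the others. The first principal component of the log2 values, 70.8% of the variance, placed WT 1 and WT 2 at 42.9 and 37.1 and the others between -24.6 and 7.26. Ogfrl1 itself had reads in all 8 libraries, at 163 ± 23.7 CPM (counts scaled to library size) in KO-labelled and 213 ± 73.8 CPM in wild-type libraries (mean ± SD, n = 4 each). Its log2 fold change was -0.39 (edgeR, SE 0.24, adjusted p = 0.404; exact permutation p = 0.314), so its total count does not check the labels, and which exons the allele lacks is not given in the sources used here. All 8 macrophage markers were present, with summed levels of 20790 to 22460 CPM in KO-labelled and 18580 to 21450 CPM in wild-type libraries. Neutrophil and progenitor markers (6 of 7 in the table, Ly6g not) summed to 96.5 to 111 CPM in KO-labelled and 115 to 136 CPM in wild-type libraries. Stromal markers (4 of 6) summed to 21.9 to 87.6 and 11.6 to 120.2 CPM. The B cell, T cell and erythroid markers had no row in the table, and of the dendritic cell markers Flt3 alone had one, at 0.423 to 1.33 CPM over all libraries. In bulk libraries fewer cells of a type and less RNA per cell cannot be told apart.

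Per length of transcript, cytosolic synthetases were the more abundant class. Their median level was 41.4 CPM per kilobase of merged exon, and the median mitochondrial level without Lars2 was 6.01, a ratio of 6.89. The highest cytosolic member was Nars, the asparagine enzyme (chr18:64499647-64516557 in mm10, minus strand, 15 merged exons), at 101.6 ± 9.02 CPM per kilobase (mean ± SD over 8 libraries). Rars, the arginine enzyme, followed at 83.4 ± 17.0, and its libraries reached up to 108, within the range of Nars, which began at 91.2. Eprs, a bifunctional enzyme that charges the tRNAs of glutamate and proline (chr1:185363095-185428355, plus strand, 32 merged exons), had 61.4 ± 7.96 CPM per kilobase. Aars for alanine had 53.8 CPM per kilobase and Gars for glycine had 52.5. Kars for lysine had 49.2, Iars for isoleucine 48.9, Hars for histidine 48.5 and Tars for threonine 46.8 CPM per kilobase. Neighbours in this stretch from Aars to Tars overlapped in their libraries, as for Gars, which began at 49.3, and Kars, which reached 53.3. Gars and Kars each supply both the cytosol and the mitochondria.

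The lower part of the cytosolic list ran from Dars for aspartate at 41.7 CPM per kilobase, Sars for serine at 41.1 and Qars for glutamine at 38.5 to the phenylalanine subunits Farsb at 35.6 and Farsa at 26.1. Vars for valine stood at 28.5 CPM per kilobase, Lars for leucine at 25.1 and Wars for tryptophan at 23.7. Mars for methionine had 19.9 CPM per kilobase, Cars for cysteine 18.01 ± 0.683 and Yars for tyrosine 17.5 ± 2.62. The last 2 did not differ beyond their spread. Mars overlaps Ddit3 by 68 bases and Yars overlaps C77080 by 30 bases, each on the opposite strand, and whether counting used strand is not given in the sources used here.

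Among mitochondrial enzymes other than Lars2, Iars2 for isoleucine was the most abundant at 21.95 ± 1.62 CPM per kilobase (chr1:185286662-185329401, minus strand, 23 merged exons). It overlaps Rab3gap2 by 85 bases on the opposite strand. Rars2 for arginine followed at 18.3 ± 2.39 and overlapped Iars2 in range, with 21.4 in its highest library against 20.04 in the lowest library of Iars2. These 2 were the mitochondrial members above Yars, the lowest cytosolic member. Cars2 for cysteine had 9.02 CPM per kilobase, and its highest library, at 10.29, lay below the lowest of Rars2, at 15.5. Yars2, Tars2, Hars2 and Fars2 followed closely at 7.52, 7.495, 6.94 and 6.93 CPM per kilobase, each within 1 SD of its neighbour. Sars2 had 6.01 CPM per kilobase, Mars2 4.56, Vars2 3.36, Nars2 3.27, Aars2 3.10 and Wars2 1.86. The lowest were Pars2 for proline at 1.23 ± 0.296 and Ears2 for glutamate at 1.03 ± 0.234 CPM per kilobase, whose ranges overlapped. Pars2 had the fewest raw counts of any member, 84 to 264 per library, and Ears2 had 189 to 544 over its 6528 bases of exon.

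**Figure D1:**
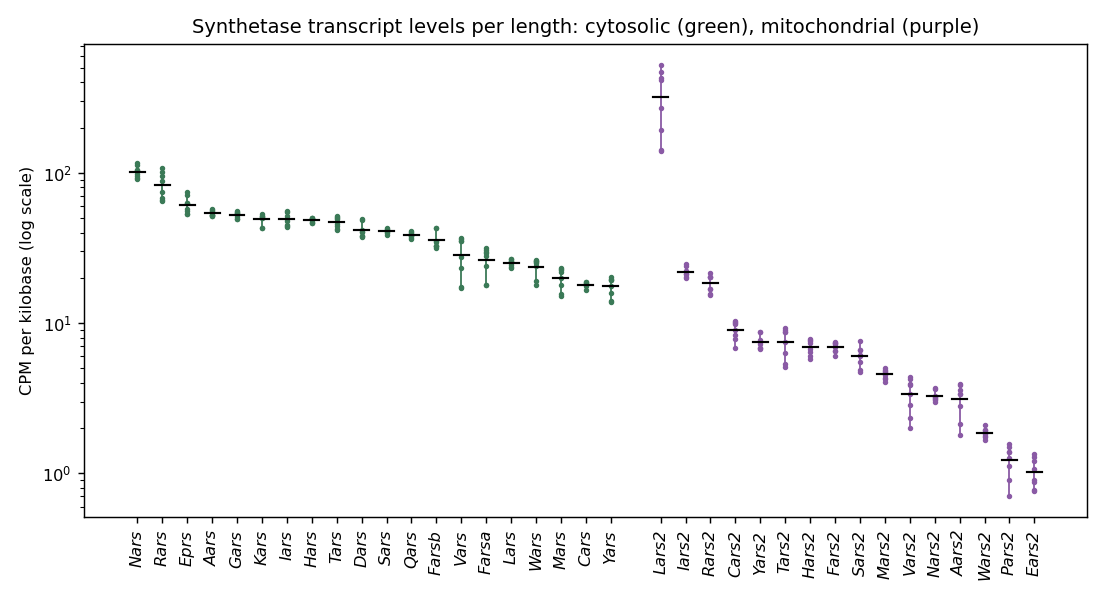
Level of each synthetase in CPM per kilobase of merged exon on a log axis, with 1 point per library (8 each) and a bar at the mean. Cytosolic enzymes lie between means of 17.5 and 101.6, mitochondrial enzymes without Lars2 between 1.03 and 21.95, and Lars2 stands above every other member.

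For 16 pairs of a cytosolic and a mitochondrial enzyme of the same amino acid, the cytosolic transcript was higher per kilobase in every library of all 16 pairs. The smallest ratio was that of Cars over Cars2, 2.03 ± 0.250 (SD over 8 libraries). Iars over Iars2 had a ratio of 2.23 ± 0.175 and Yars over Yars2 2.37 ± 0.515. The largest were Eprs over Ears2 at 64.2 ± 22.7 and Eprs over Pars2 at 55.2 ± 24.7. Their libraries ran from 41.0 to 98.5 and from 36.1 to 105.1, so these 2 are not ranked. Their order also depends on exon length, as Pars2 had a lower mean CPM than Ears2, 3.79 against 6.695. For glutamate and proline the cytosol uses the single protein Eprs, while mitochondria use the separate enzymes Ears2 and Pars2. Nars over Nars2 had a ratio of 31.2 ± 3.43 and Aars over Aars2 one of 18.5 ± 5.47. In 7 of the 16 pairs the log2 fold changes had opposite signs, and in 11 the mitochondrial value lay above the cytosolic one. Eprs enters with both Ears2 and Pars2, and Fars2 with both Farsa and Farsb, so the pairs are not independent. Tarsl2, a further threonine gene, was not on the list of 36 and had a log2 fold change of -0.19.

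Promoter windows from RefSeq (GRCm38.p6, 250 bases before to 50 after each gene's start) matched 27 of the 36 members, 13 cytosolic and 14 mitochondrial. The letters TGATGCAAT, the amino acid response element bound by ATF4 with C/EBP proteins, were searched on both strands and were present in 2 of 13 cytosolic windows, Aars and Iars, and in 0 of 14 mitochondrial ones. They were in 0.192% of all 32851 windows. Allowing any letter at 1 position, TGATGNAAT, which includes the exact form, added Gars and was in 0.965% of windows. The E-box CACGTG, bound by Myc among others, was in 4 cytosolic windows (Aars, Farsb, Iars, Tars) and 1 mitochondrial window (Ears2), against 7.15% of all windows. The ETS letters CCGGAAG were in 5 cytosolic (Farsa, Gars, Kars, Mars, Sars) and 4 mitochondrial windows (Cars2, Mars2, Rars2, Sars2), against 8.86%. The NRF1 core CGCATGCG was in 0 cytosolic and 2 mitochondrial windows, Vars2 and Wars2, against 1.87%. These are matches of letters only, and no binding was measured. The 3 windows with either form of the amino acid response element are shown in part because, of the 27 matched members, only these carry such letters. Members without a matched window were not searched. The windows of Farsa and Farsb are shown because these genes encode the subunits of 1 enzyme and had opposite patterns over the libraries. That pair was chosen after its values were seen, and no link between the letters and the patterns was tested. Each is 120 bases, 5′ to 3′ on the gene's strand, with matches in capitals: ATTGCATCA and ATTTCATCA are response elements read on the other strand, CACGTG is the E-box and CTTCCGG is the ETS match read on the other strand. They lie at chr8:111033722-111033841 (Aars, plus strand), chr13:49682030-49682149 (Iars, plus), chr6:55037881-55038000 (Gars, plus), chr8:84856866-84856985 (Farsa, plus) and chr1:78488898-78489017 (Farsb, minus).
Aars: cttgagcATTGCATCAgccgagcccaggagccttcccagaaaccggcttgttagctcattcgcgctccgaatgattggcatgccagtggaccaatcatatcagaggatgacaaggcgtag
Iars: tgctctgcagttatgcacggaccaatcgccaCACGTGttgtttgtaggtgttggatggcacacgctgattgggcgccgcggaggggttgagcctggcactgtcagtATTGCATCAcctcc
Gars: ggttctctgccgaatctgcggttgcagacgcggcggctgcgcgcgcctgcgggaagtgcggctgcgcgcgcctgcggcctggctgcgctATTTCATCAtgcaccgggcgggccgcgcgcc
Farsa: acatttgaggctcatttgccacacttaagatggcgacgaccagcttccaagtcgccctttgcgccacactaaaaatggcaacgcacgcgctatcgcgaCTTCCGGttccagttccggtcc
Farsb: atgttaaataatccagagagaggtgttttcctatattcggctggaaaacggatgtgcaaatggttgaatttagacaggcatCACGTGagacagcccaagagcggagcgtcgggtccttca
The 3 genes with either form of the response element had log2 fold changes of 0.05 (Aars), -0.11 (Iars) and -0.04 (Gars, free-letter form only). Their 95% confidence intervals, computed from the edgeR fit, were -0.10 to 0.19, -0.33 to 0.10 and -0.19 to 0.10.

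Between the genotype labels, 1 of 36 members had an unadjusted edgeR p under 0.05, Dars, which was lower in KO-labelled libraries. The same threshold took 6.52% of all genes in either direction and 4.51% as lower. No member had groups that did not overlap, against 2.64% of all genes. Adjusted p-values of the members ran from 0.404 to 0.958. The 95% confidence interval of the fold change lay within 1.5-fold in both directions for 27 of 36 members (17 of 20 cytosolic, 10 of 15 mitochondrial), against 60.3% of all genes. It lay within 2-fold for 35 of 36, against 90.5% of all genes, and Lars2 was the exception. DESeq2 and limma-voom also called 0 of the 36 members and each had 1 member at an unadjusted p under 0.05. The share of all genes at that unadjusted threshold is not given for these 2 methods, so their counts cannot be set against it.

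**Figure D2:**
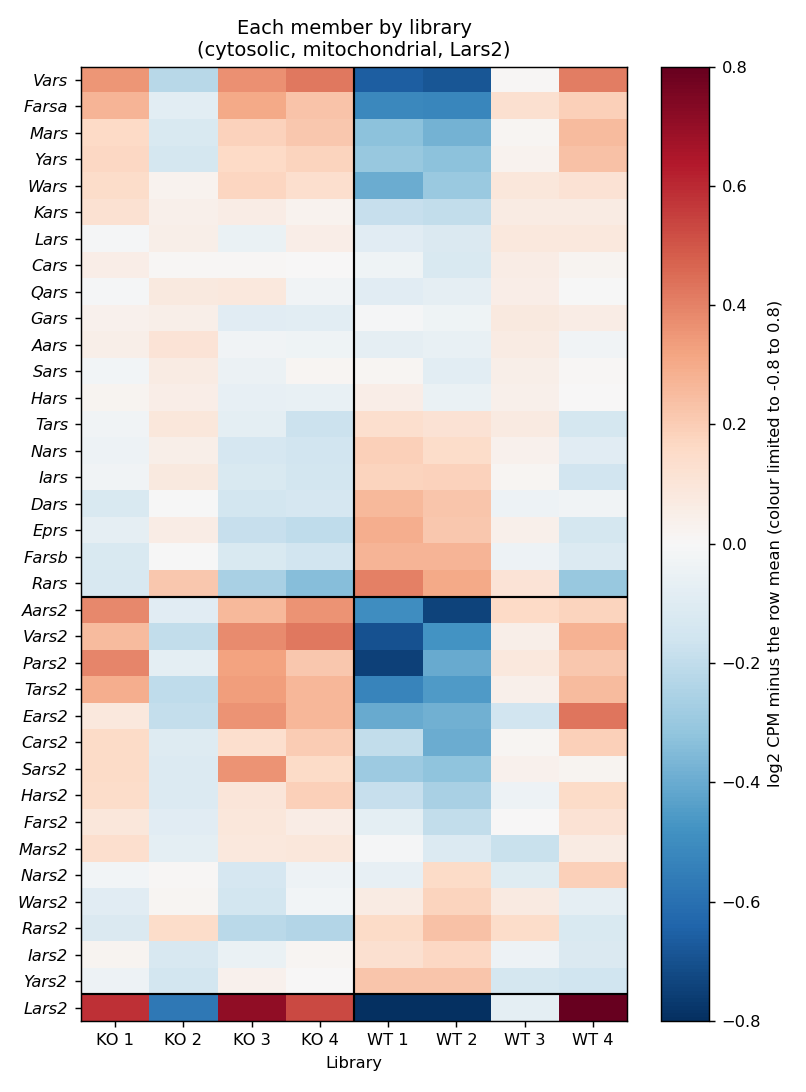
Log2 CPM of each member in each library minus the mean of its row, with colour limited to -0.8 to 0.8; rows are cytosolic enzymes, mitochondrial enzymes and Lars2, ordered within each class by WT 1 and WT 2 over WT 3 and WT 4. Both WT 1 and WT 2 are below all other libraries in 52.8% of the 36 rows, against 34.9% of all genes, and above all others in 27.8%, against 35.3%.

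Among cytosolic enzymes 11 had a higher and 9 a lower estimate in KO-labelled libraries, from -0.27 for Rars to 0.41 for Vars. Dars, which charges aspartate tRNA (chr1:128363707-128417416, minus strand, 17 merged exons), had 95.5, 103.8, 93.8 and 94.6 CPM in KO 1 to KO 4 and 124.6, 121, 101 and 102 CPM in WT 1 to WT 4. WT 1 and WT 2 were the high libraries, and KO 2 lay above WT 3 and WT 4, so the groups overlapped. The means were 96.9 ± 4.64 and 112 ± 12.4 CPM (SD, n = 4 each), with a log2 fold change of -0.21 (edgeR, SE 0.09, adjusted p = 0.404). After correction for GC content the value was 0.0097, and without WT 1 and WT 2 it was -0.07.

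Eprs had 281, 308, 260.1 and 257 CPM in the KO-labelled libraries and 361.5, 343, 304.5 and 268 CPM in the wild-type libraries. The highest were again WT 1 and WT 2, and KO 2 exceeded WT 3. The log2 fold change was -0.21 (edgeR, SE 0.11, adjusted p = 0.404), -0.05 after GC correction and also -0.05 in the separate fit without WT 1 and WT 2. Nars, the most abundant cytosolic member per length, had 260.4, 277, 244 and 242 CPM in KO 1 to KO 4 and 306, 297, 275 and 252 CPM in WT 1 to WT 4. Its groups overlapped through KO 1 and KO 2, and its log2 fold change was -0.14 (SE 0.08), and -0.04 without WT 1 and WT 2.

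Vars (chr17:35000907-35016329, plus strand, 30 merged exons) had the largest spread of the cytosolic members, 2.15-fold between its highest and lowest library. Its levels were 148, 98.9, 149 and 154.5 CPM in KO 1 to KO 4 and 72.9, 71.9, 116 and 153 CPM in WT 1 to WT 4. The lowest were WT 1 and WT 2, KO 2 was low among the KO-labelled libraries, and WT 4 lay with the other KO-labelled libraries. The estimate was 0.41 (edgeR, SE 0.26, adjusted p = 0.404), 0.10 after GC correction and 0.03 without WT 1 and WT 2. The longest Vars transcript is 60.9% GC, the highest share of the 36 members.

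Wars, which is known as an interferon-inducible gene, had 74.8, 69.0, 76.1 and 74.3 CPM in KO-labelled and 51.4, 55.1, 72.0 and 73.2 CPM in wild-type libraries. WT 3 and WT 4 lay above KO 2, so the groups overlapped, and the estimate was 0.22 (SE 0.12, edgeR adjusted p = 0.404). It was 0.09 after GC correction, 0.14 without WT 1 and 0.02 without WT 1 and WT 2. Yars, the least abundant cytosolic member per length, had 55.9, 45.3, 55.6 and 56.3 CPM in KO-labelled and 40.4, 39.75, 50.8 and 58.5 CPM in wild-type libraries. WT 4 was its highest library and WT 2 its lowest, with an estimate of 0.17 (SE 0.14) that was -0.04 without WT 1 and WT 2.

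Of the remaining cytosolic members, Farsa had a log2 fold change of 0.33, Mars 0.20, Kars 0.12, Qars 0.06, Aars 0.05, Cars 0.04, Lars 0.02 and Sars 0.0052. Hars had -0.02, Gars -0.04, Tars -0.09, Iars -0.11, Farsb -0.21 and Rars -0.27. The tightest member was Sars, with an SE of 0.061 on the log2 scale and a 95% confidence interval of -0.13 to 0.14. The estimate of Rars was -0.15 after GC correction and -0.03 without WT 1 and WT 2.

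Farsa and Farsb encode the alpha and beta subunits of cytosolic phenylalanyl-tRNA synthetase, which holds both in equal number, and the pair was chosen for description after its values were seen. Farsa had 56.3, 44.1, 57.6 and 54.8 CPM in KO 1 to KO 4 and 32.7, 32.55, 51.0 and 53.3 CPM in WT 1 to WT 4. Farsb had 82.5, 89.6, 82.4 and 80.7 CPM in KO-labelled and 108, 108, 87.3 and 83.1 CPM in wild-type libraries. The alpha transcript was lowest and the beta transcript highest in the same 2 libraries, WT 1 and WT 2, and KO 2 stood between these and the rest for both. Either pattern was common, as WT 1 and WT 2 were both below all other libraries for 34.9% of all genes and both above for 35.3%. The ratio of Farsa to Farsb per kilobase was 0.947, 0.683, 0.970 and 0.942 in KO 1 to KO 4 and 0.418, 0.417, 0.811 and 0.892 in WT 1 to WT 4. The group means were 0.886 ± 0.136 and 0.634 ± 0.253 (SD, n = 4 each), and the ranges overlapped because KO 2 lay below WT 3 and WT 4. The edgeR log2 fold changes were 0.33 (SE 0.19) and -0.21 (SE 0.10), both at an adjusted p of 0.404. After GC correction they were 0.32 and -0.11, and without WT 1 and WT 2 they were 0.03 and -0.02.

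**Figure D3:**
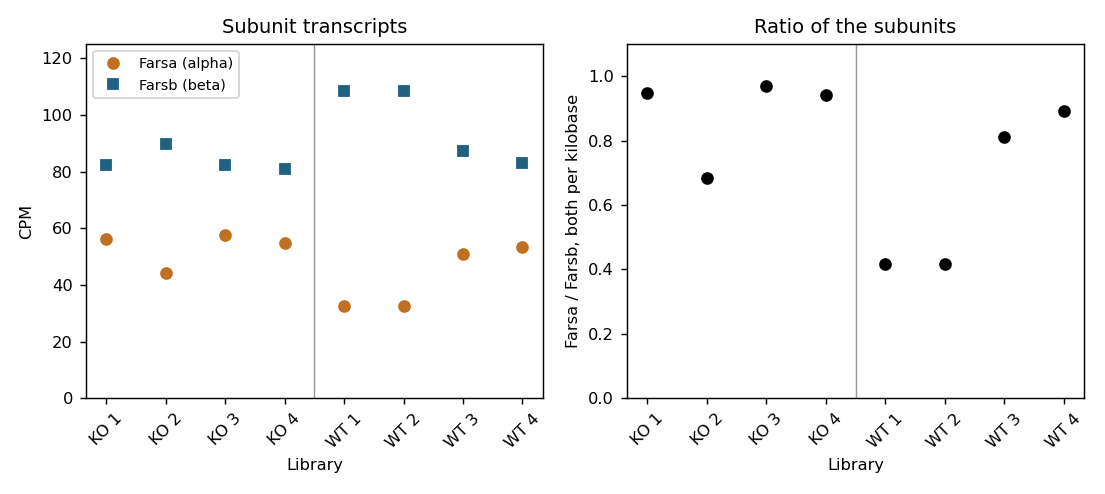
Left, CPM of Farsa (circles) and Farsb (squares) in each library; right, their ratio per kilobase of exon, with a grey line between the KO-labelled and wild-type libraries. The ratio is 0.418 and 0.417 in WT 1 and WT 2 and between 0.683 and 0.970 in the other 6 libraries.

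Among the 15 mitochondrial enzymes without Lars2, 10 had a higher and 5 a lower estimate in KO-labelled libraries, from -0.21 for Rars2 to 0.41 for Aars2, and 0 had an unadjusted edgeR p under 0.05. Sars2 for serine (chr7:28741968-28753879, plus strand, 16 merged exons) had the smallest p of the class. It had 12.6, 10.5, 14.6 and 12.6 CPM in KO 1 to KO 4 and 9.27, 9.06, 11.6 and 11.5 CPM in WT 1 to WT 4. KO 2 lay below WT 3 and WT 4, so the groups overlapped, with means of 12.6 ± 1.66 and 10.4 ± 1.39 CPM (SD, n = 4 each). The log2 fold change was 0.28 (edgeR, SE 0.13, adjusted p = 0.404), and it was -0.07 after GC correction and 0.12 without WT 1 and WT 2.

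Aars2 for alanine (chr17:45506841-45520843, plus strand, 22 merged exons) had 13.1, 9.42, 12.02 and 12.9 CPM in KO-labelled and 7.11, 6.00, 11.2 and 11.4 CPM in wild-type libraries. The lowest were WT 1 and WT 2, and KO 2 came next. The estimate was 0.41 (edgeR, SE 0.22, adjusted p = 0.404), 0.11 after GC correction and 0.07 without WT 1 and WT 2. Pars2 had 4.82, 3.48, 4.601 and 4.28 CPM in KO-labelled and 2.19, 2.78, 3.895 and 4.27 CPM in wild-type libraries, the largest spread of the class at 2.20-fold. Its low libraries were the same 2, with an estimate of 0.38 (SE 0.22) that was 0.30 after GC correction and 0.07 without WT 1 and WT 2.

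Rars2 went the other way, with 31.4, 37.6, 29.3 and 28.9 CPM in KO 1 to KO 4 and 37.9, 40.02, 37.6 and 31.2 CPM in WT 1 to WT 4. KO 2 lay with the wild-type libraries and WT 4 with the KO-labelled ones, and the estimate was -0.21 (edgeR, SE 0.11, adjusted p = 0.404), -0.06 after GC correction and -0.11 without WT 1 and WT 2. Iars2, the most abundant of the class, had 78.8, 70.9, 74.9 and 78.5 CPM in KO-labelled and 84.75, 86.9, 75.4 and 71.6 CPM in wild-type libraries. Its groups overlapped, and the estimate was -0.07 (SE 0.08), and 0.04 without WT 1 and WT 2. Ears2, the least abundant per length, had 6.94, 5.72, 8.38 and 7.88 CPM in KO-labelled and 4.94, 5.01, 5.88 and 8.80 CPM in wild-type libraries. WT 4 was its highest library, and the estimate was 0.23 (SE 0.21), 0.19 after GC correction and -0.02 without WT 1 and WT 2. Of the other mitochondrial members, Vars2 had a log2 fold change of 0.39, Tars2 0.32, Cars2 0.18, Hars2 0.16, Mars2 0.12 and Fars2 0.07. Yars2 had -0.08, Nars2 -0.10 and Wars2 -0.12.

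**Figure D4:**
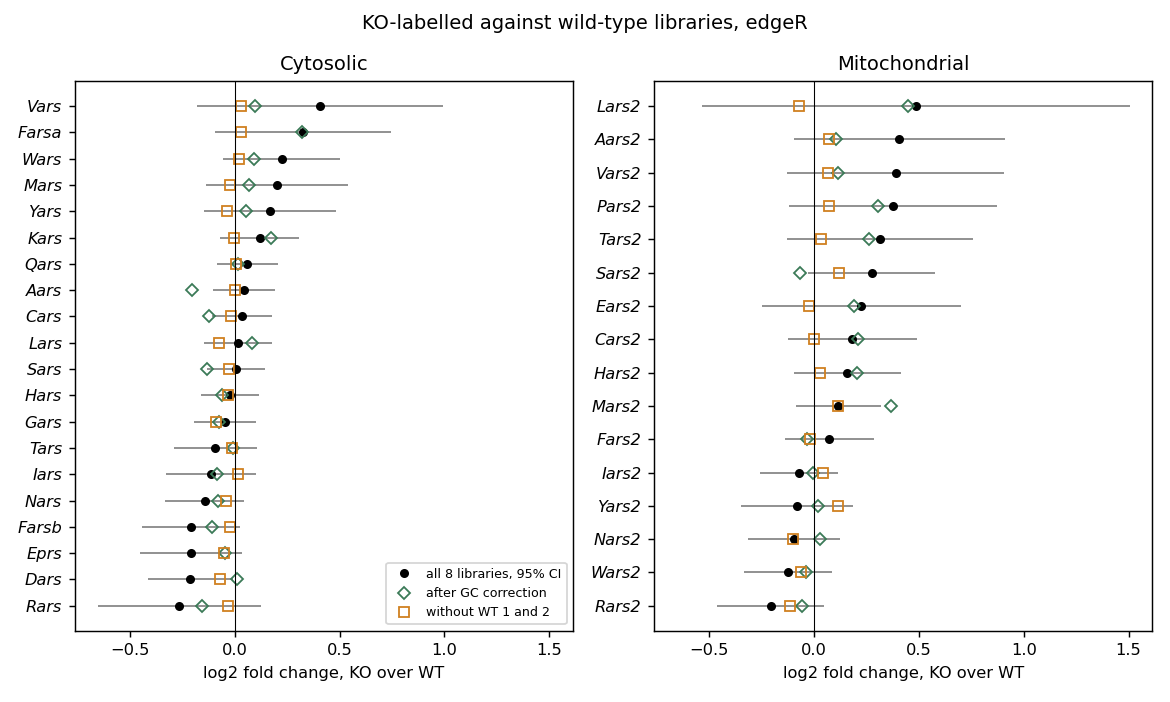
Log2 fold change (KO-labelled over wild type, edgeR) of each member with its 95% confidence interval over all 8 libraries (black), after GC correction (green diamonds) and without WT 1 and WT 2 (orange squares). The median is 0.01 for cytosolic and 0.16 for mitochondrial enzymes without Lars2, and -0.02 and 0.03 without WT 1 and WT 2.

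Set against each other by library, the geometric mean CPM of the mitochondrial enzymes over that of the cytosolic enzymes, a ratio that compares libraries and not levels per length, was 0.137, 0.120, 0.142 and 0.143 in KO 1 to KO 4. It was 0.116, 0.120, 0.125 and 0.138 in WT 1 to WT 4. KO 2 lay below WT 3 and WT 4, so the groups overlapped, with means of 0.136 ± 0.0105 and 0.125 ± 0.00956 (SD, n = 4 each). The cytosolic mean itself was 110.5 to 114 CPM in KO-labelled and 106 to 115 CPM in wild-type libraries, and the mitochondrial mean was 13.6 to 15.8 and 12.5 to 15.6 CPM. The members other than Lars2 together took 0.279 to 0.297% of all counts in each library. The difference between the classes in their median was not tested.

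Many members had WT 1 and WT 2 at an end of their range. The log2 ratio of WT 1 and WT 2 over WT 3 and WT 4 had a median of -0.09 for cytosolic, -0.28 for mitochondrial enzymes and -0.02 for all genes. Both WT 1 and WT 2 were below all other libraries for 10 of 20 cytosolic and 8 of 15 mitochondrial members and for Lars2. That is 52.8% of the 36 members, against 34.9% of all genes. They were both above all others for 7 cytosolic and 3 mitochondrial members, 27.8% of the 36, against 35.3% of all genes. Without these 2 libraries the median log2 fold change was -0.02 for cytosolic enzymes (6 of 20 higher) and 0.03 for mitochondrial enzymes (9 of 15 higher).

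The estimates also moved with the GC content of each gene's longest transcript, which ran from 38.8% for Mars2 to 60.9% for Vars. Across genes, which are not independent replicates, Spearman's rho of GC content and log2 fold change was 0.773 for the 20 cytosolic, 0.80 for the 15 mitochondrial members and 0.715 for 11113 genes with a GC value. Without WT 1 and WT 2 it was 0.504, 0.368 and 0.095. After the GC trend of each library was taken out, the median log2 fold change was -0.03 for cytosolic and 0.11 for mitochondrial enzymes, with 9 of 20 and 10 of 15 higher. With the ribosomal RNA percentage as a covariate the medians were 0.0017 and 0.06.

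The count at an unadjusted p under 0.05 depended on the library WT 4. Without it, 20 of 36 members passed it by edgeR, 10 cytosolic (5 higher, 5 lower), 9 mitochondrial (8 higher, 1 lower) and Lars2, against 45.1% of all genes in the same fit. The lowest adjusted p of a member there was 0.0877. The count was 5 without KO 2, against 14.1% of all genes, and 4 without WT 3, against 14.5%. It was 0 without KO 1, KO 3, KO 4, WT 1 or WT 2, where 1.94, 1.16, 1.64, 1.36 and 1.32% of all genes passed, in place of 1 member and 6.52% of all genes with all 8 libraries.

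Lars2, the mitochondrial leucine enzyme (chr9:123366940-123462664, plus strand, 21 merged exons), stood outside both classes. At 321.7 ± 153 CPM per kilobase (SD over 8 libraries) its row was 14.65 times as high as that of Iars2 and 53.6 times the median mitochondrial member. It had 1666, 746, 1817 and 1600 CPM in KO 1 to KO 4 and 554, 542, 1049 and 2014 CPM in WT 1 to WT 4. WT 4 was the highest library, WT 1, WT 2 and KO 2 were the lowest, and the groups overlapped. The highest library exceeded the lowest 3.72-fold, while the other 35 members spanned 1.09-fold to 2.20-fold.

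The Lars2 libraries stood in nearly the same order as their ribosomal RNA. The authors' ribosomal RNA percentage was 7.16, 2.71, 8.24 and 7.21 in KO 1 to KO 4 and 1.79, 1.83, 4.21 and 9.10 in WT 1 to WT 4, a 5.08-fold range. Rn45s, the ribosomal RNA precursor, had 28659, 12079, 33275 and 26823 CPM in KO-labelled and 9040, 9652, 18635 and 37371 CPM in wild-type libraries, a 4.13-fold range. Divided by the ribosomal RNA percentage, Lars2 was 220.5 to 275 CPM per percent in KO-labelled and 221 to 309.6 CPM per percent in wild-type libraries. How many of the reads counted for Lars2 came from ribosomal RNA was not measured.

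Lars2 averaged 1457 ± 483 CPM in KO-labelled and 1040 ± 691 CPM in wild-type libraries (SD, n = 4 each). The log2 fold change was 0.49 (edgeR, SE 0.45, 95% confidence interval -0.53 to 1.51, adjusted p = 0.483). A two-sided exact permutation test over the 70 assignments of libraries gave p = 0.257, where the smallest possible is 0.0286. The estimate was -0.07 without WT 1 and WT 2, 0.09 with the ribosomal RNA percentage as a covariate and 1.03 without WT 4 (adjusted p = 0.0877).

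**Figure D5:**
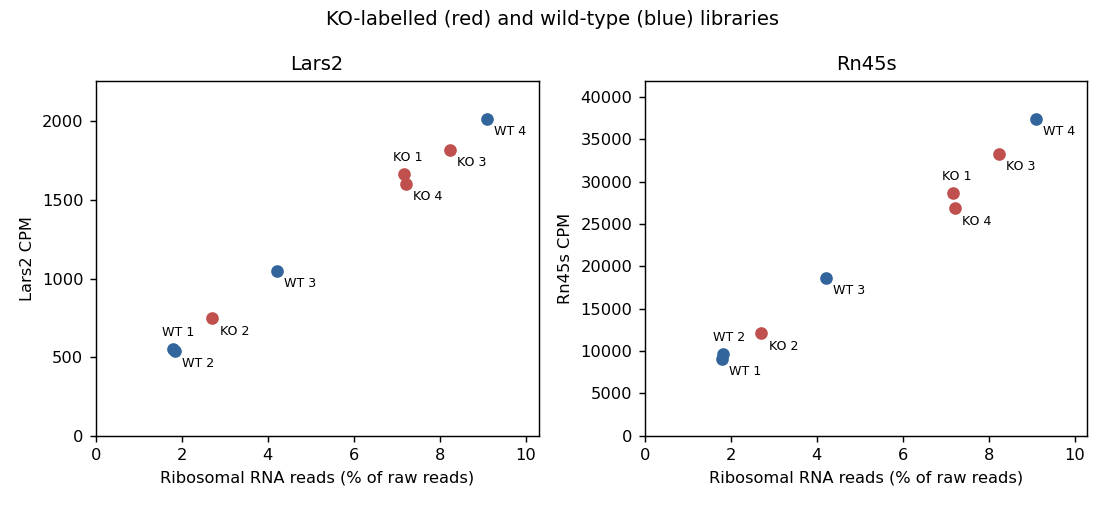
CPM of Lars2 (left) and of the ribosomal RNA precursor Rn45s (right) against the authors' percentage of ribosomal RNA reads, with 1 labelled point per library, KO-labelled in red and wild type in blue. Both rows run from WT 1 and WT 2 at under 2% ribosomal RNA to WT 4 at 9.10%, and the labelled groups are mixed along the way.

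Genes that act beside the synthetases were described from 6 lists, and 0 of the members tested passed the adjusted threshold in any of them by edgeR. The scaffold of the multisynthetase complex was represented by Aimp1, Eef1e1 and Aimp2, with log2 fold changes of -0.19, -0.17 and 0.10. The cytosolic elongation factors (5 tested) had a median of 0.08. Among them was Eef1b2, an exchange factor for the elongation factor that carries charged tRNA. It had 174 to 199 CPM in KO-labelled and 200.0 to 231 CPM in wild-type libraries. Its groups did not overlap, as for 2.64% of all genes, though KO 2 at 198.8 CPM lay close to WT 3 at 200.0 CPM. Eef1b2 was the 1 gene of the 5 with an unadjusted p under 0.05, against 6.52% of all genes. Its log2 fold change was -0.18 (edgeR, SE 0.07, adjusted p = 0.404). Eef2, which moves the ribosome along the messenger, had 0.30, and Eef1g, another part of the exchange complex, had 0.12.

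The kinases and other genes that control the initiation factor eIF2 (9 of 10 tested) had a median of -0.04. The heme-regulated kinase Eif2ak1 had a log2 fold change of -0.29, the double-stranded RNA sensor Eif2ak2 -0.25 and the phosphatase subunit Ppp1r15a 0.22. Of the ATF4 targets of the amino acid response, 24 of 29 were tested. Among these, 21 had a higher and 3 a lower estimate in KO-labelled libraries, against 49.3% higher and 50.7% lower of all genes. Their median was 0.13. That median was 0.03 after GC correction and 0.0093 without WT 1 and WT 2. In this list 2 of 24 genes had an unadjusted p under 0.05, both higher, against 6.52% of all genes in either direction. Slc7a5, a transporter of large neutral amino acids, had 52.5 to 58.2 CPM in KO-labelled and 41.7 to 51.1 CPM in wild-type libraries, without overlap, as for 2.64% of all genes. Its log2 fold change was 0.25 (edgeR, SE 0.08, adjusted p = 0.404), 0.0022 after GC correction and 0.17 without WT 1 and WT 2. Trib3, a pseudokinase induced by ATF4, had 0.847 to 1.72 and 0.483 to 1.04 CPM from 21 to 88 raw counts, with an estimate of 0.91 (edgeR, SE 0.30, adjusted p = 0.404). It was 0.64 after GC correction and 0.59 without WT 1 and WT 2. Shmt2, a mitochondrial enzyme of serine and glycine metabolism, had 0.29, and it was 0.04 after GC correction and 0.08 without WT 1 and WT 2.

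Mitochondrial translation factors (14 of 15 tested) had 2 higher and 12 lower estimates, against 49.3% higher and 50.7% lower of all genes. Their median was -0.13, and it was -0.12 after GC correction and -0.03 without WT 1 and WT 2. Mtrf1l, a release factor, had a log2 fold change of -0.32, and Mtif2, an initiation factor, had -0.22. After GC correction these were -0.25 and -0.07, and without WT 1 and WT 2 they were -0.05 and -0.04. Gatc, a subunit of the amidotransferase that makes mitochondrial glutamine tRNA from the product of Ears2, had -0.57. In WT 1 and WT 2 Gatc stood at 57.3 and 62.9 CPM, against 25.0 to 36.3 CPM in the other 6 libraries. Its estimate was -0.58 after GC correction and 0.11 without WT 1 and WT 2. The genes of tRNA maturation and proofreading (13 tested) had a median of 0.01, with 1 higher and 2 lower at an unadjusted p under 0.05. Ssb, the La protein that binds the ends of new tRNA precursors, had a log2 fold change of -0.60 (edgeR, SE 0.25, adjusted p = 0.404). The estimate was -0.27 after GC correction and -0.09 without WT 1 and WT 2. Dtd1, which removes D-amino acids from tRNA, had 0.28 without overlap of the groups, as for 2.64% of all genes. Prorsd1, related to an editing domain of bacterial prolyl-tRNA synthetase, had -0.23. The edgeR fit over all 8 libraries took 6.52% of all genes at an unadjusted p under 0.05.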

How the data were processed

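RNA was isolated from BMMs by phase separation and libraries were made with an mRNA kit, per the labels' protocols. Reads were aligned by the authors with STAR to mm10, per the submitters' processing notes. Raw counts per gene came from featureCounts, and the percentages of ribosomal RNA and mitochondrial reads from bowtie2 and bamutils, per the file headers. Not given in the sources used here are versions, annotation release, strand setting and the filter on the genes listed. The authors' deposited log2 FPKM differed from log2 CPM per kilobase computed here by 2.82e-05 to 0.0258 over the members, and the authors' deposited p-value and false discovery rate columns, from a tool not stated, had lowest member values of 0.0542 and 0.447. The log2 fold change and fold columns deposited by the authors were not used.

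From the counts, KO was compared with wild type by the genotype label, 4 libraries each, with edgeR 4.0.16 (quasi-likelihood test, TMM factors, R 4.3.3). The test was run on 11541 genes, of which the default filter removed none. P-values were adjusted by Benjamini-Hochberg over all of them, with a threshold of 0.05. The procedure was also run on simulated counts with a common dispersion and no shift by library or GC content. That run does not bear on such shifts in these data, and its outcome is not given here. Replicates were numbered in accession order. No pairing is given. Levels are TMM-scaled CPM, divided by merged exon length where genes are compared. Transcript GC content is that of the longest reference transcript of each gene, and other isoforms did not enter. It was available for 11113 genes (96.3%), all members included. The correction smoothed each library's log2 deviation (prior count 2) on GC content by lowess (span 0.3). Other settings were DESeq2 1.42.0, limma-voom (limma 3.58.1), upper-quartile or RLE factors, a minimum of 1 CPM in 4 libraries or no filter, library sizes without Lars2, a ribosomal RNA covariate, GC correction, no WT 1 and WT 2, and each library left out. The deposited per-sample columns that were not used numbered 0.

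Values in every library are given for the 4 members of each class with the smallest p, the most and least abundant per length, the most variable, and Lars2, and for Farsa after its values were seen; 3 genes with the smallest p are named from each list. Members, lists and settings were chosen with earlier results of these data known. Protein sequences were not analysed here.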

Additional observations from a re-analysis of the deposited data

Results flagged for a closer look

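Each member was checked within each group of 4 libraries for a library whose gap to its nearest neighbour took a larger part of the group's range than Dixon's 95% critical value. Of 72 groups 6 had one, where chance gives about 1 in 20 for a single group. The groups come from the same 8 libraries and are not independent. The share of all genes flagged by this rule is not given, so the count cannot be set against it. KO 2 was the library in 5 of the 6. On the first principal component over all genes KO 2 also stood apart, at 7.26 against -22.7 to -15.0 in the other KO-labelled libraries. Vars, the cytosolic valine enzyme, had 98.9 CPM in KO 2 against 148 to 154 CPM in KO 1, KO 3 and KO 4. Yars, the cytosolic tyrosine enzyme, had 45.3 CPM in KO 2 against 55.6 to 56.3 CPM. The mitochondrial threonine enzyme Tars2 had 28.2 CPM in KO 2 against 39.0 to 40.9 CPM, and the mitochondrial phenylalanine enzyme Fars2 had 12.3 CPM against 13.7 to 13.9 CPM. Dars, for aspartate, was high instead, at 104 CPM in KO 2 against 93.8 to 95.5 CPM. In the direction of its departure each of these 5 values lay on the side of WT 1 and WT 2. KO 2 also had the lowest ribosomal RNA percentage of the KO-labelled libraries, 2.71, and the highest mitochondrial read percentage, 3.17, and their part in these values was not tested. Cars, for cysteine, had 60.1 CPM in KO 1 against 58.2 to 58.4 CPM in the other KO-labelled libraries.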

How the results depend on the processing

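Under 18 alternatives, 8 of which left out a library, 0 of 36 members passed the adjusted threshold of 0.05, and the smallest adjusted value of any member was 0.0877. Of all genes 0 passed except under DESeq2, which called 1. The count of members at an unadjusted p under 0.05 was 1 over all libraries. It was 0 after GC correction and 0 without WT 1 and WT 2, where the share of all genes is not given. With 1 library left out the count ranged from 0 to 20, beside 1.16 to 45.1% of all genes. The sign of 18 of 36 members was the same in every alternative. Leaving out 1 library moved the median of the cytosolic enzymes between -0.02 and 0.04, that of the mitochondrial enzymes between 0.099 and 0.24 and the estimate of Lars2 between 0.27 and 1.03. Leaving out 1 library also turned the sign of Lars (-0.0171 to 0.0482) and Sars (-0.0215 to 0.0226).

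Without WT 1 and WT 2 the sign turned for 13 members: Lars2 -0.072, Cars -0.019, Kars -0.0038, Lars -0.073, Mars -0.024, Sars -0.025, Yars -0.0375, Cars2 -0.0017, Ears2 -0.023 and Fars2 -0.021, and Iars 0.0145, Iars2 0.0435 and Yars2 0.11. It also turned for Eef2 -0.01, Eef1g -0.065, Eif2ak1 0.033, Eef1e1 0.06 and Gatc 0.11. GC correction turned 8 members: Aars -0.21, Cars -0.12, Sars -0.13, Sars2 -0.066, Fars2 -0.035, Dars 0.0097, Nars2 0.0285 and Yars2 0.019, and also Aimp1 0.11, Aimp2 -0.086 and Prorsd1 0.023. The ribosomal RNA covariate gave -0.0068 for Lars, and upper-quartile factors gave 0.015 for Hars. The cause was not tested.

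No paired analysis was possible because the labels give the groups no shared replicate numbers. With 4 libraries a group, 27 of 36 members had 95% confidence intervals within 1.5-fold in both directions, and the intervals of the other 9 reached further. Pars2, at 84 to 264 counts, was the member with the fewest reads, and counting error bears on it most.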
